A study of Arabidopsis thaliana with 16 samples.

Results

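The genes described here were near-silent in roots without cycloheximide (CHX) and gave a strong signal 4 h after its addition. They were chosen from the array values by a fixed rule on the level of each probe set, which is log2(intensity + 16) throughout, so that a signal of 0 reads 4. The mean level had to be under 6 over the 4 mock and DEX arrays and at least 10 over the 4 CHX and DEX+CHX arrays, and its rise with auxin alone had to stay under 1.5. Of 22746 probe sets, 7083 were near-silent by the first limit, and with CHX 633 of these reached a level of 7, 395 a level of 8, 259 a level of 9 and 185 a level of 10. The auxin limit removed 20 of the 185, and 6 more were left out by gene name: AT1G22810, AT2G04050, AT2G04070 and the beta-glucosidases BGLU27, BGLU31 and BGLU32. The remaining 159 members are 0.699% of all probe sets. The annotation gives a single gene for 92 of them, several genes for 3 and none for 64.

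All samples were roots of Arabidopsis thaliana seedlings 5 days old with the puchi-1 mutation and the gPUCHI:GR transgene, in which the AP2/ERF factor PUCHI is fused to a glucocorticoid receptor domain and driven by its own regulatory region. They were grown under continuous light and treated for 4 h. The 8 groups of 2 arrays were NAA+DEX+CHX, NAA+CHX, DEX+CHX, CHX, NAA+DEX, NAA, DEX and mock, with dexamethasone (DEX) at 2 µM, the synthetic auxin naphthaleneacetic acid (NAA) at 1 µM, CHX at 10 µM and 0.1% DMSO in the mock. Every group carried both the mutation and the transgene, so neither DEX nor CHX was measured in roots without them. The labels speak of independent RNA sets without naming separate plantings. Every p-value thus rests on the spread between 2 such samples per group, pooled over the groups and not taken from the compared groups alone. The number of samples limits the precision.

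Cycloheximide blocks the elongation step of translation on cytosolic ribosomes, and it is used with a GR fusion to ask which transcripts respond without new protein. In plants as in animals, many early-response transcripts are known to accumulate under it. Plant genes that respond rapidly to wounding, touch or elicitors include those for calcium sensors, zinc finger factors, E3 ubiquitin ligases and receptor-like proteins.

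Median levels over all probe sets were 7.58 to 7.68 on the 16 arrays. Of 13 root markers the annotation names 2, the root hair expansins EXPA7 and EXPA18, at 8.97 to 10.10 and 8.78 to 10.70, while the 1 named green tissue marker of 7, Rubisco activase (RCA), had 8.34 to 8.77 on the arrays with CHX and 8.64 to 9.52 on those without. As a measure of RNA integrity, the ratio of 3' to 5' GAPDH control signals was 0.763 to 1.57 with CHX and 0.877 to 1.53 without on 1 pair of probe sets, with medians of 1.09 and 1.43, and 0.951 to 1.27 with CHX and 1.02 to 1.19 without on another, with medians of 1.01 and 1.11. Both medians were lower with CHX. With CHX, EXPA18 fell by 1.16 and RCA fell by 0.69 relative to mock and DEX (limma adjusted p 1.47e-08 and 2.26e-05, n = 4 against 4), and EXPA7 stood at -0.18, past no threshold (limma adjusted p 0.142). The part of these markers and of RNA integrity in the results was not tested. More cells of a type and more RNA per cell cannot be told apart in whole roots.

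The rule did not read the 4 arrays treated with NAA and CHX together, so these show whether the members were also on in samples that did not choose them. They were. The mean over the 4 arrays was at least 10 for 152 of the 159 members, and 146 members were at 10 or above on each of the 4. These arrays held CHX as well, so a high level there is not particular to the members. Of all 3325 probe sets at 10 or more with CHX, 97.6% lay within 0.5 of that level with NAA and CHX. How many of the 3325 stayed at 10 or more was not counted. The lowest of the 4 lay above the highest of the 8 arrays without CHX for all 159 members, with a gap of 3.05 to 8.55 and a median of 5.39. The rule had held those 8 arrays low, so the lower side of this gap is not independent of the choice, and only the levels of the 4 arrays are. Over all probe sets 21.7% met that order without a minimum gap, and over the near-silent ones 16.7%. Seen from the other side, 183 near-silent probe sets reached 10 on the NAA and CHX arrays. The same 152 members made up 83.1% of these and 95.6% of the 159. The other 31 were the 20 over the auxin limit, the 6 left out by name and 5 whose mean with CHX fell just short, at 9.71 or more. The 83.1% is thus set in large part by the rule.

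On single arrays the median level of the members was 11.50 and 11.39 with NAA+DEX+CHX, 11.39 and 11.45 with NAA+CHX, 11.38 and 11.33 with DEX+CHX and 11.32 and 11.32 with CHX. It was 5.43 and 5.37 with NAA+DEX, 5.36 and 5.42 with NAA, 5.43 and 5.18 with DEX and 5.09 and 5.25 in the mock. Of these medians, those of the 4 arrays with NAA and CHX are the ones the rule did not set. Summed over the members, the signal made up 4.02% to 4.31% of the total on the 4 arrays with NAA and CHX and 3.86% to 4.14% on the 4 with CHX, against 0.0207% to 0.035% on the 8 without.

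**Figure D1:**
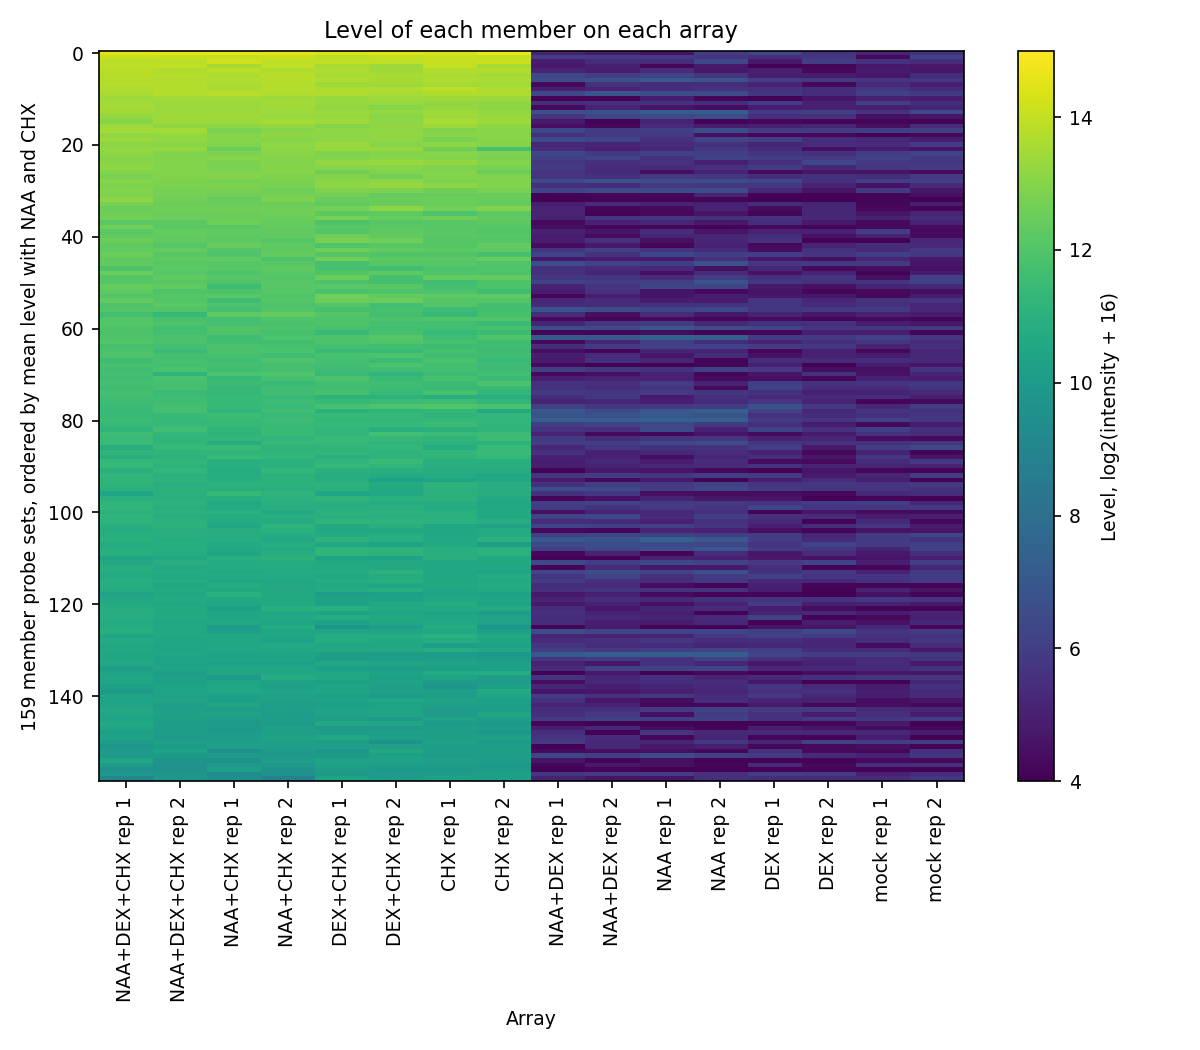
Level of the 159 members (rows, ordered by their mean on the NAA+CHX and NAA+DEX+CHX arrays) on each of the 16 arrays (columns), as log2(intensity + 16) in colour. The 8 arrays with CHX on the left are bright for every member, and the 8 without CHX on the right are dark; the rule read all arrays except the 4 leftmost.

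The named members with the strongest signal were followed array by array. In each run of 4 values below, replicates 1 and 2 with DEX stand before replicates 1 and 2 without DEX. Signals of different probe sets depend on their probes, so their order does not rank transcripts. AT2G23270 stood at 14.48, 14.57, 14.62 and 14.46 with NAA and CHX and 14.43, 14.46, 14.33 and 14.66 with CHX, against 5.03, 4.77, 4.53 and 5.94 with NAA and 6.32, 5.60, 5.13 and 5.59 with neither. The 8 values with CHX span 14.33 to 14.66. AT1G74870 had 13.87, 13.85, 14.20 and 13.93 with NAA and CHX and 13.95, 13.96, 14.05 and 14.10 with CHX, against 4.88, 5.44, 5.42 and 6.39 with NAA and 4.76, 5.98, 5.62 and 5.39 with neither. This gene encodes a RING-domain protein, a class that holds many E3 ubiquitin ligases. AT3G54520 stood at 13.92, 13.95, 13.52 and 13.94 with NAA and CHX and 13.55, 13.40, 13.97 and 13.58 with CHX, against 4.75, 4.97, 4.20 and 4.77 with NAA and 4.08, 4.14, 4.77 and 4.71 with neither. AT3G54150 had 13.74, 13.68, 13.69 and 13.78 with NAA and CHX and 13.67, 13.51, 13.71 and 13.61 with CHX, against 6.52, 6.72, 7.07 and 6.80 with NAA and 6.06, 5.87, 5.69 and 5.76 with neither. AT3G54150 is of the methyltransferase family, and its 4 arrays with NAA alone, at 6.52 to 7.07, lay above the 4 with neither. AT1G56060 measured 13.49, 13.34, 13.36 and 13.50 with NAA and CHX and 13.31, 13.30, 13.18 and 13.16 with CHX, against 5.46, 5.52, 5.63 and 5.45 with NAA and 5.97, 5.00, 6.10 and 5.44 with neither. It encodes a small cysteine-rich protein of the CYSTM type, a family of membrane-bound stress proteins. AT1G10875 stood at 13.02, 13.44, 13.37 and 13.51 with NAA and CHX and 13.38, 13.13, 13.62 and 13.38 with CHX, against 4.80, 4.11, 5.05 and 4.11 with NAA and 4.24, 4.17, 4.16 and 4.11 with neither. Its 4 values with neither, at 4.11 to 4.24, were close to 4, which is a signal of 0. AT5G28610 had 13.04, 12.98, 12.84 and 12.96 with NAA and CHX and 13.20, 13.31, 13.22 and 12.98 with CHX, against 5.74, 5.54, 5.55 and 4.98 with NAA and 5.52, 6.35, 5.81 and 5.76 with neither. In none of these genes did any array with CHX come near an array without it.

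Calcium sensors and regulators of transcription were also among the members. CML37 and AT3G01830 (CML40) are calmodulin-like calcium sensors, and AT3G53600 (ZAT18) is a C2H2 zinc finger factor. CML37 stood at 13.12, 12.95, 12.77 and 12.96 with NAA and CHX and 13.02, 13.02, 12.86 and 12.77 with CHX, against 5.94, 5.29, 5.36 and 5.52 with NAA and 5.95, 5.21, 5.78 and 5.97 with neither. AT3G01830 had 13.08, 13.04, 12.97 and 13.13 with NAA and CHX and 13.36, 13.02, 13.14 and 12.97 with CHX, against 5.25, 5.15, 5.35 and 5.62 with NAA and 5.18, 5.39, 5.38 and 5.92 with neither. On the 8 arrays with CHX, CML37 kept to 12.77 to 13.12 and AT3G01830 to 12.97 to 13.36. AT3G53600 measured 13.47, 13.47, 12.77 and 13.02 with NAA and CHX and 13.14, 13.12, 12.93 and 13.03 with CHX, against 6.39, 5.91, 6.05 and 6.61 with NAA and 5.90, 5.85, 6.04 and 6.08 with neither. Here the NAA+DEX+CHX replicates lay above the other 6 arrays with CHX. Further regulators of transcription had means with NAA and CHX of 11.93 for AT1G78410 (a VQ-motif protein), 11.54 for AT4G26120 (NPR2, related to the salicylate receptor NPR1), 10.76 for AT1G04500 (a CCT-motif protein) and 10.74 for AT2G38250 (the trihelix factor GT-3b). Their means in mock and DEX were 4.93, 5.24, 4.72 and 5.87 in the same order. IQD22 had 10.56, 10.47, 10.37 and 10.43 with NAA and CHX and 10.26, 10.12, 10.08 and 9.85 with CHX, against 7.12, 7.29, 7.32 and 7.24 with NAA and 6.22, 6.01, 5.96 and 5.77 with neither. IQD22, an IQ-domain protein that binds calmodulin, lay just inside the rule on both limits and also had raised values with NAA alone.

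**Figure D2:**
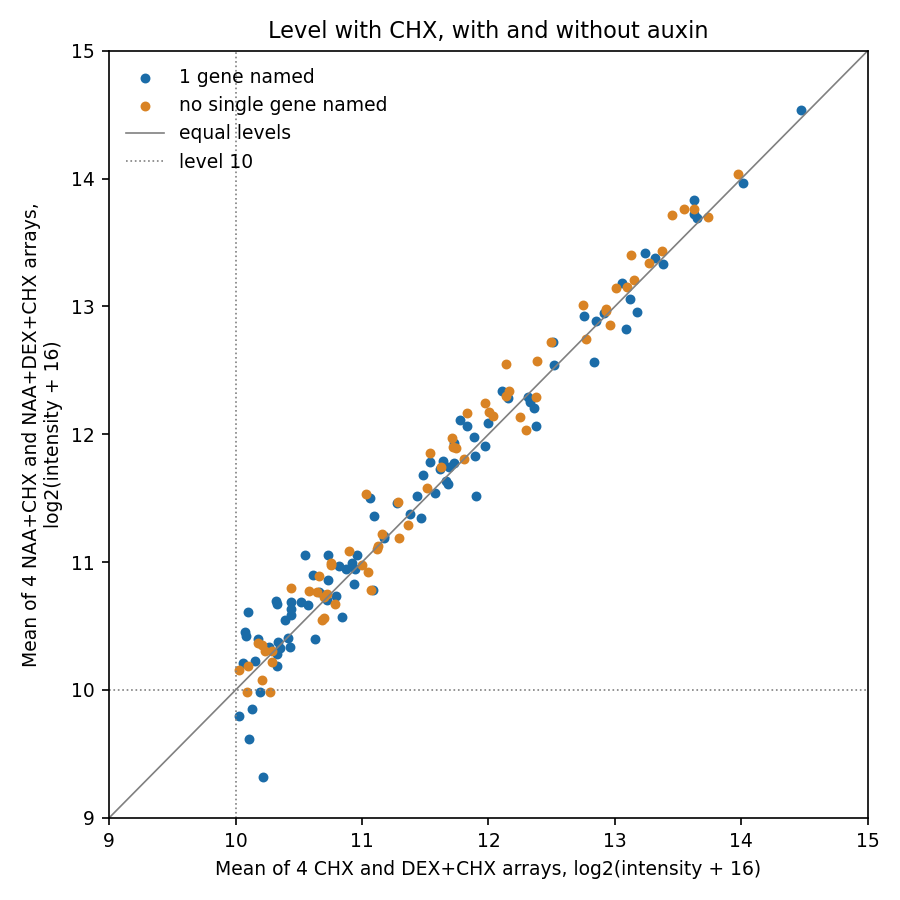
Mean level of each member over the 4 NAA+CHX and NAA+DEX+CHX arrays, which the rule did not read (vertical axis), against the mean over the 4 CHX and DEX+CHX arrays, which it did (horizontal axis), both as log2(intensity + 16). Points lie along the line of equal levels, with 155 of 159 within 0.5 of it; 7 fall under 10 on the vertical axis.

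With CHX the levels with and without auxin were compared next. The mean with NAA and CHX minus the mean with CHX had a median of 0.07 over the members and lay within 0.5 for 155 of 159, which is 97.5%. Of all 3325 probe sets at a level of at least 10 with CHX, 97.6% lay within the same range, so this share is near the background. All 4 arrays with NAA and CHX were above all 4 with CHX for 20 members (12.6%) and below them for 8 (5.03%), where 4.22% and 5.43% of all probe sets were. This background holds probe sets of every level, unlike the one before. Members also had a lower median replicate SD in the groups with CHX, 0.099 against 0.129 over all probe sets. The part of either in these shares was not tested. The CHX arrays had chosen the members, so these differences are a description without a test. AT1G13310 had 10.81, 10.74, 10.09 and 10.81 with NAA and CHX and 9.69, 10.11, 10.80 and 9.79 with CHX, against 4.20, 4.82, 4.08 and 4.08 with NAA and 4.57, 4.60, 5.28 and 4.17 with neither. AT2G36440 had 11.20, 11.13, 10.84 and 11.05 with NAA and CHX and 10.86, 10.31, 10.42 and 10.62 with CHX, against 4.90, 4.23, 4.81 and 4.08 with NAA and 4.94, 5.36, 4.98 and 4.10 with neither. AT1G13310 had the largest difference of the members, 0.52, but its CHX arrays overlapped its NAA and CHX arrays. AT2G36440 differed by 0.50 and overlapped in 1 pair of arrays. AT2G39400 stood at 11.47, 11.70, 11.23 and 11.61 with NAA and CHX and 11.06, 11.17, 11.30 and 10.71 with CHX, against 7.08, 6.53, 7.09 and 7.36 with NAA and 6.11, 5.21, 5.71 and 5.57 with neither. This alpha/beta hydrolase family gene also had a level of 7.02 with NAA alone. AT5G46040 measured 9.11, 9.78, 9.48 and 8.89 with NAA and CHX and 10.38, 10.04, 10.31 and 10.14 with CHX, against 5.02, 4.64, 4.63 and 5.49 with NAA and 5.43, 5.36, 5.36 and 5.76 with neither. AT5G46040, a major facilitator family transporter, had the largest difference in the other direction, -0.90, and its 2 sets of 4 arrays did not overlap. AT4G19370 had 9.85, 9.70, 9.33 and 9.60 with NAA and CHX and 9.99, 10.03, 10.16 and 10.25 with CHX, against 5.79, 5.88, 5.92 and 5.49 with NAA and 5.98, 5.92, 5.02 and 5.46 with neither. AT1G28600 stood at 11.50, 11.76, 11.36 and 11.44 with NAA and CHX and 11.80, 11.95, 12.02 and 11.85 with CHX, against 6.13, 5.75, 5.82 and 5.90 with NAA and 6.71, 5.83, 5.22 and 5.98 with neither. In AT4G19370 and in the GDSL lipase AT1G28600 the arrays with NAA and CHX were all below those with CHX, by 0.49 and 0.39 on average. Of the named members with the lowest signal, 2 remain. AT5G05300 had 10.05, 9.55, 9.90 and 9.89 with NAA and CHX and 10.35, 10.18, 10.09 and 9.90 with CHX, against 4.14, 4.75, 4.49 and 4.13 with NAA and 5.32, 4.28, 5.48 and 5.54 with neither. AT5G05300 encodes IDL6, a precursor of an IDA-like signalling peptide. AT5G40180 had 9.67, 9.67, 10.21 and 9.63 with NAA and CHX and 10.11, 10.01, 9.95 and 10.03 with CHX, against 4.12, 4.17, 4.04 and 4.11 with NAA and 4.11, 4.17, 4.12 and 4.07 with neither. It lay just inside the limit on CHX, while its 8 arrays without CHX stayed between 4.04 and 4.17.

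Auxin alone was limited by the rule, and its values are given only as a description. The change with NAA over the mock, DEX states averaged, had a median of 0.21 over the members, was within 0.5 for 110 and exceeded 1 for 12. The named ones among the 12 were AT3G46110 (SOSEKI4, a protein that localises to cell edges) at 1.48, AT1G72060 at 1.39, AT2G39400 at 1.37, EXLA3 (expansin-like A3) at 1.32, IQD22 at 1.25, AT2G32140 at 1.21 and AT2G24600 at 1.00. Just outside the limit of 1.5 lay AT1G44130 at 1.82, AT5G22530 at 2.03 and AT2G41090 at 2.46. For the CHX limit of 10, AT5G40180 at 10.02, AT4G11730 at 10.06 and IQD22 at 10.07 were just inside, and AT5G61560 at 9.97, AT4G24170 at 9.95 and AT2G44580 at 9.91 just outside. For the mock and DEX limit of 6, AT2G24600 and IQD22 at 5.99 and AT1G33600 at 5.97 were just inside, and AT1G67470 at 6.05, AT1G14550 at 6.06 and AT4G39830 at 6.07 just outside.

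A set of 4 members belongs to a single run of genes with a heavy-metal-associated domain, small proteins of a family linked to metal binding. AT5G52670 and AT5G52680 follow each other in the gene table, as do AT5G52750 and AT5G52760. AT5G52750 stood at 13.54, 13.73, 13.80 and 13.69 with NAA and CHX and 13.69, 13.56, 13.67 and 13.66 with CHX, against 6.28, 6.89, 6.58 and 6.57 with NAA and 5.74, 5.45, 6.09 and 5.89 with neither. AT5G52760 had 12.88, 12.69, 12.60 and 12.71 with NAA and CHX and 12.71, 12.36, 12.46 and 12.51 with CHX, against 4.12, 4.19, 4.22 and 5.13 with NAA and 4.11, 4.10, 4.18 and 4.49 with neither. With NAA alone AT5G52760 averaged 4.42 and AT5G52750 6.58. AT5G52670 had 12.02, 12.11, 12.16 and 11.97 with NAA and CHX and 12.62, 12.34, 12.26 and 12.27 with CHX, against 4.15, 4.94, 4.62 and 4.93 with NAA and 4.72, 4.68, 4.22 and 4.82 with neither. AT5G52680 measured 11.62, 11.83, 11.39 and 11.72 with NAA and CHX and 11.92, 11.45, 11.82 and 11.48 with CHX, against 4.93, 5.09, 5.01 and 4.33 with NAA and 4.43, 4.14, 4.99 and 4.87 with neither. For AT5G52670 the arrays with NAA and CHX were all below those with CHX, by 0.31 on average. The measured genes between the 2 pairs, looked at after the values were seen, were AT5G52690, AT5G52710, AT5G52720 and AT5G52740. They were not members, since their levels with CHX were 8.07 to 9.68. With CHX all 4 rose over mock and DEX, with changes of 3.75 to 4.81 (limma adjusted p 5.15e-11 to 2.5e-12, n = 4 against 4). Next to the run on 1 side AT5G52660 rose by 0.90 and beyond it AT5G52650 fell by 2.01 (limma adjusted p 1.05e-06 and 1.24e-12). On the other side AT5G52770 rose by 0.76 (limma adjusted p 0.011), AT5G52780 stood at 0.47 without a call (limma adjusted p 0.23), and AT5G52790 fell by 1.09 (limma adjusted p 0.000154). Probes of such similar genes can bind each other's transcripts.

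**Figure D3:**
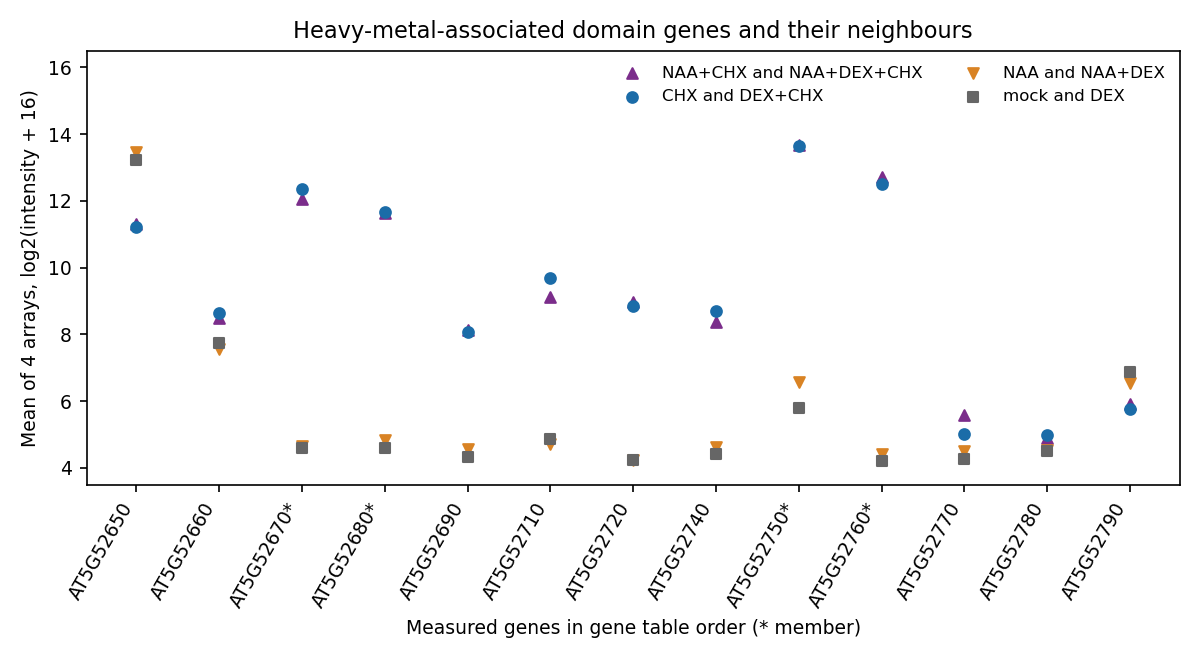
Mean level (log2(intensity + 16), 4 arrays per point, DEX states pooled) of the measured genes from AT5G52650 to AT5G52790 in gene table order, with members starred. From AT5G52670 to AT5G52760 every measured gene is higher on the arrays with CHX, with or without NAA, than on those without.

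Another 3 members encode AAA-type ATPases, which use ATP to remodel proteins or membranes. AT3G28580 and AT3G28610 lie in a run of such genes with 2 genes between them. AT3G28610 stood at 12.17, 12.23, 12.56 and 12.41 with NAA and CHX and 11.97, 12.08, 12.16 and 12.22 with CHX, against 4.26, 5.03, 5.19 and 4.74 with NAA and 5.46, 4.75, 4.28 and 5.08 with neither. AT3G28580 had 12.31, 12.25, 12.32 and 11.94 with NAA and CHX and 12.62, 12.21, 12.20 and 12.43 with CHX, against 4.69, 4.87, 4.78 and 5.52 with NAA and 4.72, 4.47, 5.19 and 4.75 with neither. On the 8 arrays with CHX they kept to 11.97 to 12.56 and 11.94 to 12.62. AT2G18190 measured 10.43, 10.34, 10.22 and 10.34 with NAA and CHX and 10.19, 10.08, 10.27 and 10.51 with CHX, against 5.92, 5.47, 5.78 and 5.34 with NAA and 5.83, 5.21, 4.89 and 5.34 with neither. The other measured genes from AT3G28500 to AT3G28620, a window also set after the values were seen, went both ways with CHX. AT3G28600 rose by 3.95, AT3G28510 by 2.38, AT3G28560 by 1.23 and AT3G28530 by 0.63 (limma adjusted p 1.33e-10, 7.45e-09, 0.000109 and 0.000145, n = 4 against 4). AT3G28550 fell by 0.99 and AT3G28500 fell by 0.76 (limma adjusted p 2.66e-06 and 0.02). AT3G28590 at 0.15, AT3G28520 at -0.20, AT3G28540 at -0.58 and AT3G28620 at 0.37 were not called (limma adjusted p 0.74, 0.55, 0.11 and 0.36).

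Neighbours of the members were also examined more widely. Of the 91 named members placed in the gene table, 5 pairs lay within 4 genes of each other: besides the 3 pairs above, AT1G51915 with AT1G51920 and AT2G38240 with AT2G38250. AT2G38240 (JOX4) is a jasmonate oxygenase, and it shares no family with GT-3b beside it. Directly next to a member lay 87 measured genes that were not members. With CHX 50 of these rose and 17 fell in limma, with a median change of 0.76. Rises made up 57.5% of these neighbours and 28.9% of all 13355 named genes, whose median change was 0.03. Falls made up 34.4% of all probe sets, and their share of the named genes was not counted. The neighbours include genes of the runs described above, such as AT5G52690, AT5G52740 and AT3G28600. Some neighbours are copies from the same family, as with AT1G26410 beside the berberine-bridge-like oxidoreductase AT1G26420, where AT1G26410 rose by 4.42 (limma adjusted p 1.01e-12). This is a description of shares, without a test of the difference.

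Receptor-like and immune-type proteins formed the next group. Proteins with a TIR domain act in the recognition of pathogens, often with nucleotide-binding and leucine-rich repeat parts. AT2G20142 stood at 11.80, 11.71, 11.86 and 11.81 with NAA and CHX and 11.70, 11.65, 11.57 and 11.63 with CHX, against 5.43, 5.87, 6.07 and 6.20 with NAA and 5.95, 5.80, 5.04 and 5.54 with neither. AT2G32140 had 11.36, 11.35, 11.39 and 11.41 with NAA and CHX and 11.39, 11.39, 11.49 and 11.25 with CHX, against 5.99, 6.11, 6.33 and 5.88 with NAA and 5.54, 4.88, 4.22 and 4.82 with neither. AT2G32140 also had higher values with NAA alone than without, with no overlap between those arrays. AT1G57630 had 10.84, 11.37, 11.44 and 11.16 with NAA and CHX and 11.19, 11.30, 10.79 and 11.42 with CHX, against 5.18, 5.64, 5.63 and 5.56 with NAA and 6.04, 4.78, 5.90 and 6.37 with neither. AT1G69550 measured 9.99, 10.36, 10.59 and 10.41 with NAA and CHX and 10.21 to 10.71 on the 4 arrays with CHX, against 4.61, 4.71, 4.91 and 5.17 with NAA and 5.53, 5.5, 4.98 and 5.32 with neither. AT1G69550 is the TIR-NBS-LRR protein of the 4. The leucine-rich repeat proteins, AT2G26380 and AT1G33600, averaged 12.26 and 10.59 with NAA and CHX, against 5.30 and 5.97 in mock and DEX.

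Receptor kinases pass signals from outside the cell to phosphorylation inside. AT4G18250 had 11.58, 11.58, 11.38 and 11.54 with NAA and CHX and 11.38, 11.48, 11.60 and 11.29 with CHX, against 5.15, 5.17, 4.89 and 5.36 with NAA and 5.76, 5.05, 4.21 and 4.27 with neither. AT5G39020 had 11.03, 11.08, 10.93 and 10.92 with NAA and CHX and 11.05, 10.70, 10.98 and 10.93 with CHX, against 6.63, 6.42, 5.93 and 6.30 with NAA and 5.88, 5.67, 5.69 and 5.56 with neither. The first has a thaumatin-like outer part and the second a malectin-like one. AT1G61550 stood at 10.16, 10.43, 10.49 and 10.49 with NAA and CHX and 10.21, 10.05, 10.23 and 10.21 with CHX, against 5.33, 6.14, 6.19 and 6.25 with NAA and 5.27, 5.27, 5.32 and 5.62 with neither. AT1G61550 is of the S-locus lectin type. The protein kinase AT1G51620 averaged 10.97 with NAA and CHX and 5.88 in mock and DEX, and the protein phosphatase 2C AT1G07160 averaged 11.77 and 4.92. AT3G55840 (HSPRO1, tied to resistance against nematodes and bacteria) had 12.11 with NAA and CHX and 5.81 in mock and DEX, and AT2G17660, of the RIN4/NOI family, had 10.38 and 5.57.

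**Figure D4:**
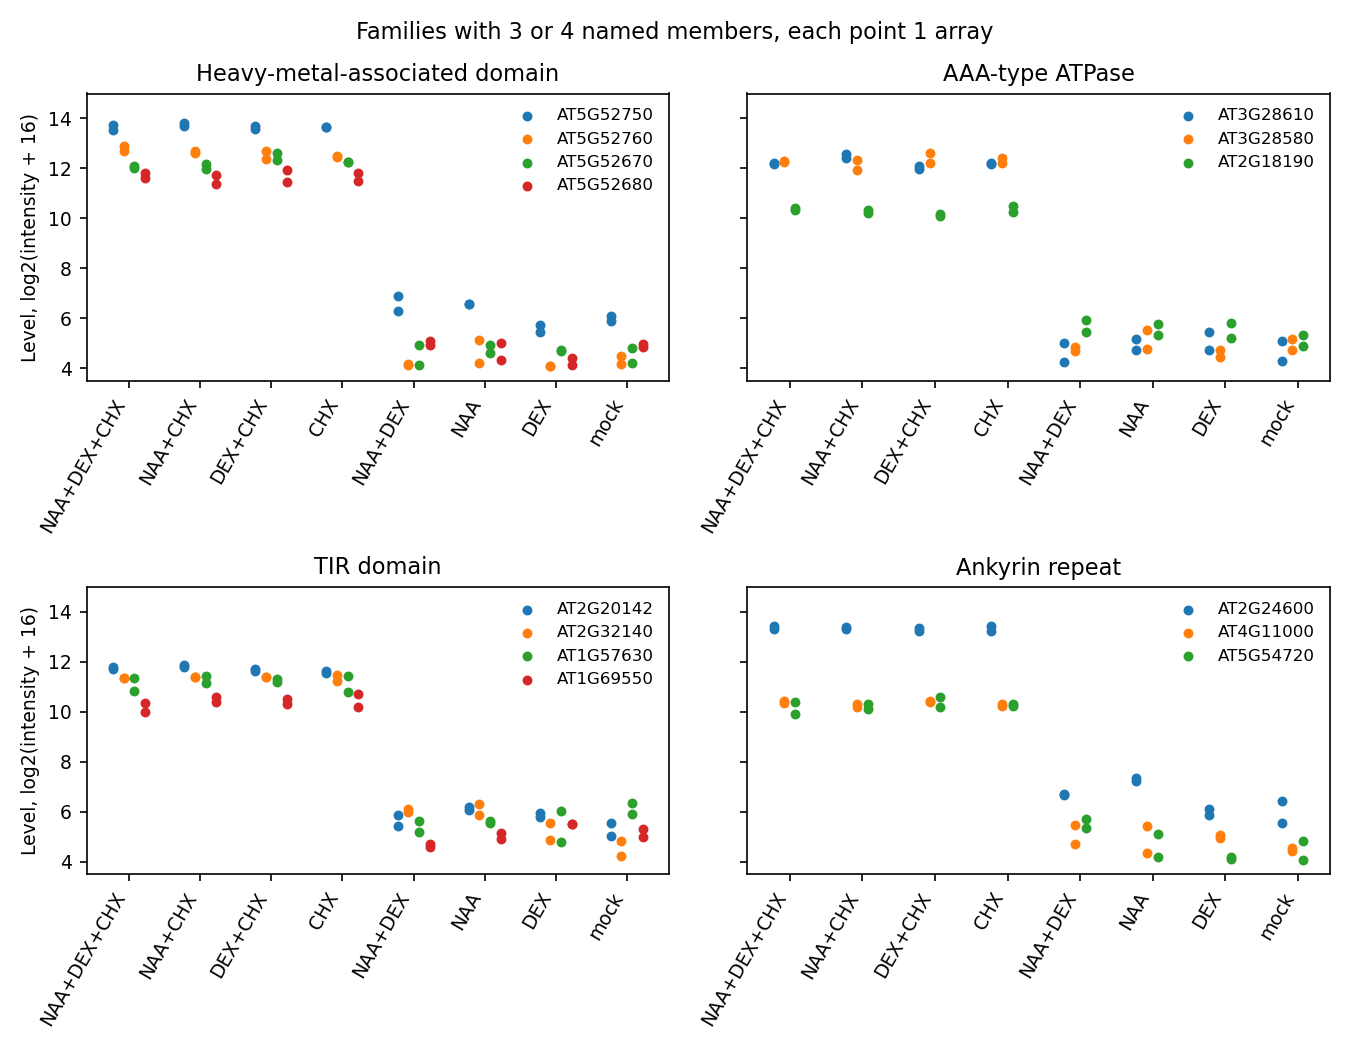
Level (log2(intensity + 16)) of the named members of 4 families in the 8 groups, each point 1 array. In each family the points with CHX lie between 9.92 and 13.80 and those without CHX between 4.06 and 7.34.

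Ubiquitin ligases attach ubiquitin to target proteins, and E3 ligases of the RING and U-box kinds are known from defence. Besides AT1G74870, the RING proteins AT4G15975 and RING1 were members. AT4G15975 stood at 12.38, 12.26, 11.59 and 12.13 with NAA and CHX and 12.14, 12.15, 11.77 and 11.93 with CHX, against 5.08, 5.71, 6.24 and 6.31 with NAA and 4.79, 4.53, 5.15 and 5.25 with neither. RING1 had 10.47, 10.32, 10.45 and 10.46 with NAA and CHX and 10.10, 10.11, 10.11 and 10.03 with CHX, against 5.76, 5.95, 5.59 and 6.14 with NAA and 5.56, 5.27, 5.35 and 5.69 with neither. RING1 had tight replicates, with 10.03 to 10.11 on the 4 CHX arrays and 10.32 to 10.47 on the 4 with NAA and CHX, which do not overlap. The U-box ligase AT5G37490 (PUB21) averaged 10.86 with NAA and CHX and 5.81 in mock and DEX, and the related ARM-repeat protein AT3G02840 averaged 12.29 and 4.83.

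Ankyrin-repeat proteins, whose repeats bind other proteins, gave 3 members. AT2G24600 stood at 13.45, 13.33, 13.33 and 13.39 with NAA and CHX and 13.34, 13.25, 13.43 and 13.24 with CHX, against 6.69, 6.71, 7.24 and 7.34 with NAA and 5.87, 6.10, 5.56 and 6.44 with neither. AT4G11000 had 10.37, 10.44, 10.19 and 10.31 with NAA and CHX and 10.38, 10.45, 10.33 and 10.24 with CHX, against 5.47, 4.71, 4.35 and 5.44 with NAA and 5.08, 4.97, 4.42 and 4.56 with neither. AT5G54720 measured 10.39, 9.92, 10.13 and 10.33 with NAA and CHX and 10.58, 10.19, 10.24 and 10.30 with CHX, against 5.71, 5.34, 4.21 and 5.12 with NAA and 4.21, 4.12, 4.85 and 4.06 with neither. AT2G24600 lay just inside the mock and DEX limit, and its values with NAA alone were all above those without.

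Enzymes, transporters and membrane or cell wall proteins filled further places. NDB4, an alternative NAD(P)H dehydrogenase of mitochondria, averaged 12.93 with NAA and CHX, against 4.44 in mock and DEX. CCOAMT, a caffeoyl-CoA methyltransferase of phenylpropanoid metabolism, averaged 11.98 and 5.41, and JOX4 11.36 and 5.84. AT1G26420 and the carboxypeptidase-like scpl30 averaged 10.57 and 10.41 with NAA and CHX. Of the transporters, the MATE protein AT1G66780 averaged 10.69 and the P-type ATPase AT4G11730 10.21. The flotillin-like AT5G64870 averaged 12.07 and the tetraspanin TET9 10.54. Secreted or wall proteins were EXLA3 at 11.83, the family 17 glycosyl hydrolase AT5G64790 at 11.34, the legume-type lectin AT1G53080 at 10.95, the subtilase AT4G21630 at 10.69 and the matrix metalloproteinase AT1G24140 at 10.28. Each of these had a mean under 6 in mock and DEX, as the rule required.

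Of the other named members, AT3G46110 averaged 11.46 with NAA and CHX and AT2G37810, with a C1 domain, 12.57. The remaining ones are named without a role: AT5G57510, AT2G25735, AT1G35210, AT2G20720, AT3G21080, AT5G44990, AT5G03390, AT2G31860, AT2G27320, AT1G48980, AT5G60350, AT5G38310, AT4G02170, AT2G14290, AT1G65500, AT1G20310, AT4G24110, AT1G13200, AT3G57460, AT3G14700, AT4G16680, AT3G50190 and AT4G18540. They averaged between 9.99 and 12.88 with NAA and CHX, and between 4.24 and 5.82 in mock and DEX. The 67 members without a single gene had means of 9.98 to 14.04 with NAA and CHX (median 11.74), against 9.32 to 14.53 for the named ones (median 11.35).

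Other stress regulators were read from lists of genes, many of which are known for rapid responses. The cytochromes P450 were read as an enzyme family. For these lists, measured means that a probe set was matched by gene ID or symbol. The annotation gives no gene for 8730 of 22746 probe sets, so the counts cannot stand for whole families. With CHX, DEX states pooled, 29.5% of all probe sets rose and 34.4% fell without NAA (14525 calls in all), and 29.1% rose and 35.1% fell with NAA. Of 8 calmodulin-like genes 7 were measured by name, and 5 rose and 1 fell without NAA, with a median change of 2.47 against -0.00707 over all probe sets. With NAA 5 rose and none fell (median 2.56). The 5 include the member CML37, whose call is no evidence since the rule used it. The member AT3G01830 (CML40) is not among the 7. CML38 rose by 6.64 (limma adjusted p 2.32e-18, SE 0.104, n = 4 against 4), with a level of 12.85 with CHX and 6.22 in mock and DEX. The rule also leaves out CML38, WRKY53 and STZ by name, with earlier results of these data known. Their calls here and below are therefore only a description. CML42 rose by 3.89 and CML23 by 2.47 (limma adjusted p 1.94e-18 and 4.24e-10).

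Of 22 U-box ligases 9 were measured by name and 6 rose and 1 fell (median 2.70), while with NAA 7 rose and none fell (median 1.90). The member AT5G37490 (PUB21) is not among these 9. PUB24, an E3 ligase that dampens immune responses together with PUB22 and PUB23, rose by 5.53, PUB23 by 4.27, PUB22 by 3.32 and PUB26 by 3.12 (limma adjusted p 1.08e-16, 8.01e-19, 2.56e-17 and 3.95e-13). PUB24 stood at 12.13 with CHX and 6.60 in mock and DEX, just above the limit of the rule. Of 68 WRKY factors 6 were measured by name, and 5 rose and none fell without NAA and with NAA (medians 1.90 and 2.03). WRKY53 rose by 6.38, WRKY22 by 4.46, WRKY6 by 3.04 and WRKY20 by 0.75 (limma adjusted p 1.1e-19, 1.74e-16, 4.43e-16 and 1.07e-07), and the fifth rise was that of WRKY47 without NAA and of WRKY42 with it. The 4 measured of 43 ERF and DREB factors had 3 rises and 1 fall in both backgrounds (medians 2.58 and 2.13), with AT1G22810 at 8.74, ORA47 at 2.91 and AT1G19210 at 2.25 (limma adjusted p 3.12e-17, 6.52e-09 and 4.76e-06) and tny, a DREB-type factor, at -2.25 (limma adjusted p 2.12e-11). AT1G22810 met the limits of the rule and was left out by name, so its call is no evidence either. Of the 10 ZAT factors 2 were measured by name and both rose in both backgrounds (medians 3.93 and 3.26). The member AT3G53600 (ZAT18) is not among these 2. STZ (ZAT10) rose by 7.33 and AT2G28200 (ZAT5) by 0.54 (limma adjusted p 5.48e-19 and 0.000154).

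The 2 measured of 27 salicylate and immune genes rose in both backgrounds (medians 2.97 and 3.13). They were SAG101, a partner of EDS1, at 3.23 and the kinase BIK1 at 2.72 (limma adjusted p 6.34e-12 and 1.84e-14). AT1G26380, the 1 measured of 9 genes for camalexin and indolic phytoalexins, rose by 6.98 without NAA and 7.74 with it (limma adjusted p 1.77e-19 and 9.5e-20), and its level in mock and DEX, 6.15, was above the limit of the rule. The 3 measured of 28 jasmonate genes had no rise and 1 fall in both backgrounds (medians 0.21 and 0.42), PDF1.2, a defensin, at -0.67 (limma adjusted p 0.030). THI2.1 at 0.48 and JMT at 0.21 were not called (limma adjusted p 0.241 and 0.572). The list, set by gene ID and by JAZ and TIFY symbols, does not hold the member JOX4, which averaged 11.10 with CHX and 5.84 in mock and DEX. Of 225 cytochromes P450 22 were measured, and 6 rose and 4 fell without NAA and 10 and 3 with it (medians 0.20 and 0.29). Most of the 22 are of the CYP71B subfamily and several stayed near the floor, so these medians do not stand for all P450 genes. CYP84A4 rose by 4.98 and CYP51G2 by 2.09 (limma adjusted p 7.73e-18 and 3.84e-07), and CYP71B26 fell by 2.65 and CYP71B37 fell by 1.95 (limma adjusted p 1.67e-10 and 3.1e-10). NAC014, the 1 measured of 81 NAC factors, rose by 0.77 and by 0.36 with NAA (limma adjusted p 0.000103 and 0.030). The lists of ACS, MYB and cysteine-rich receptor kinase genes had none measured by name.

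DEX lets the PUCHI fusion enter the nucleus. Only the DEX comparison with NAA and CHX lies wholly on arrays the rule did not read. The others lie partly or wholly on arrays it did read, of which it used the mean over the DEX states and not the difference between them, and their members were picked for a level near the floor without CHX. Each comparison gave 0 or 1 called member. With NAA and CHX, on arrays the rule did not read, 0 of 159 members passed in limma, where 7 probe sets or 0.0308% of all did, and 7 members had an unadjusted p under 0.05 (4.4%, against 7.57% of all probe sets). The changes of the members ran from -0.79 to 0.57 with a median of 0.08 and a median 95% interval of ± 0.45, and for 151 members the whole interval lay within ± 1. With CHX, 0 of 159 passed in limma (0.0132% of all), and 5 had an unadjusted p under 0.05 (3.14%, against 6.63%). Here the changes ran from -0.48 to 1.07 with a median of 0.08, and 154 intervals lay within ± 1. The largest rise of a named member with NAA and CHX was that of AT3G53600, 0.57 (limma adjusted p 0.411, SE 0.160, n = 2 against 2), and the largest fall that of AT1G78410, with a mean of 11.54 with NAA+DEX+CHX and 12.32 with NAA+CHX (-0.79, limma adjusted p 0.528, n = 2 against 2). With only the 8 arrays that held CHX in the fit, an alternative added after the data were seen, 0 members were called in either comparison. There 0 of all 22746 probe sets were called as well, so this refit cannot tell the members from the rest.

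Replicates of the members differed more at their low levels without CHX than at their high levels with it. Their median replicate SD was 0.099 in the groups with CHX and 0.223 in those without, against 0.129 and 0.113 over all probe sets. The fit holds 1 spread per probe set over all arrays and so averages over this difference. The median SE of the members was 0.211 in each of the 4 backgrounds. For the members this shared spread tends to be too wide with CHX and too narrow without. The shares of unadjusted p under 0.05, above and below, therefore do not show how members compare with all probe sets. With NAA, 1 of 159 members passed in limma (0.0352% of all), and 40 had an unadjusted p under 0.05 (25.2%, against 7.18%). With DEX alone, 1 passed (0.022% of all), and 35 had an unadjusted p under 0.05 (22.0%, against 4.7%). For the average over the 4 backgrounds, 1 passed (0.0791% of all) and 25 had an unadjusted p under 0.05 (15.7%, against 6.95%). No member with a named gene was among the 3. With only the 8 arrays without CHX in the fit, 0 members were called with DEX alone or with NAA, where 1 of all probe sets was called in each.

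The 3 called members are probe sets without a gene in the annotation. 248358_at had 11.31, 11.26, 10.91 and 11.01 with NAA and CHX and 11.25, 11.43, 10.89 and 10.95 with CHX, against 4.82, 5.21, 4.89 and 5.38 with NAA and 4.36, 4.29, 5.34 and 5.81 with neither. With DEX alone 248358_at fell by 1.25 (limma adjusted p 0.0267, SE 0.187, n = 2 against 2). With each of the 16 arrays left out in turn, 5 fits kept the call, those without an NAA or NAA+DEX replicate or mock replicate 1, and the other 11 ended it, with values of -1.49 to -1.02 and limma adjusted p up to 0.183 without DEX replicate 2. 266217_at had 10.46, 10.97, 11.39 and 11.14 with NAA and CHX and 10.49, 10.64, 11.07 and 10.84 with CHX, against 5.52, 5.80, 4.44 and 4.35 with NAA and 4.41, 4.25, 5.21 and 5.42 with neither. With NAA, DEX raised 266217_at by 1.26 (limma adjusted p 0.0267, SE 0.182, n = 2 against 2), and the change with DEX alone was -0.98 (limma adjusted p 0.151). That call held in the 6 fits without a DEX, mock or NAA+DEX+CHX replicate and ended in the other 10 (1.12 to 1.40, limma adjusted p up to 0.14 without NAA replicate 1). 249333_at measured 10.49, 10.57, 10.98 and 11.07 with NAA and CHX and 10.33, 10.36, 10.95 and 10.69 with CHX, against 4.12, 4.05, 5.10 and 4.95 with NAA and 4.74, 4.55, 4.56 and 4.92 with neither. The average DEX change of 249333_at was -0.50 (limma adjusted p 0.0229, SE 0.082), from -0.49 with NAA and CHX, -0.48 with CHX, -0.94 with NAA and -0.10 alone. Its call was kept by 7 of those 16 fits and ended without CHX replicate 1, DEX replicate 2, NAA replicate 1 or any DEX+CHX, NAA+CHX or NAA+DEX+CHX replicate (-0.55 to -0.46 over all 16, limma adjusted p up to 0.103).

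**Figure D5:**
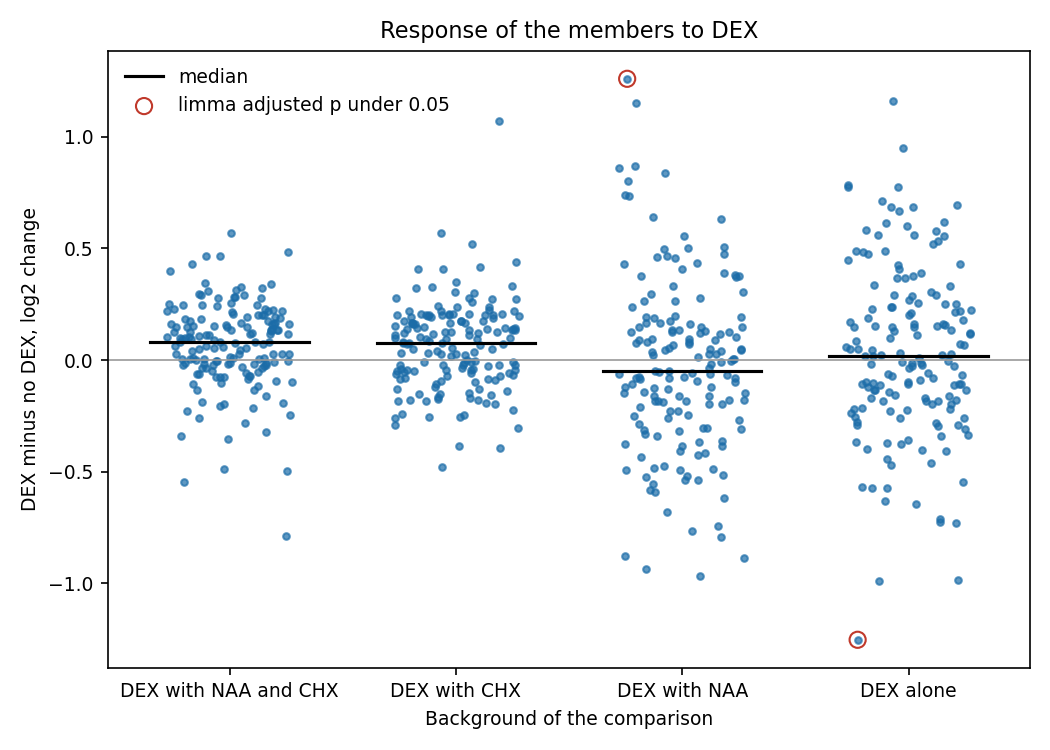
Change with DEX (log2, DEX minus no DEX, 2 arrays against 2) of the 159 members in the 4 backgrounds, each point 1 member, with the median as a bar and members called by limma circled. The points lie closer to 0 in the 2 backgrounds with CHX, where 0 are called, than in the 2 without, where 1 is called in each.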

How the data were processed

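Biotin-labelled cRNA from 16 root samples was hybridised to Affymetrix arrays, and the authors deposited 1 intensity per probe set and array, on a linear scale, made with Affymetrix Expression Console 1.3 per the submitters' processing notes. The labels and the file name no summarisation method. The 2% trimmed mean of each array was 500.0 to 500.1, so the deposited intensity is already scaled.

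Here 64 control probe sets were left out, 16 was added and log2 taken. Genes came from the platform annotation (13513 probe sets with 1 gene, 503 with several, 8730 with none). For 13436 the symbol was updated through the TAIR10.1 gene table. limma 3.58.1 in R 4.3.3 fitted 1 mean per group over 16 arrays (8 residual degrees of freedom, variance trend), with 2-sided p-values, Benjamini-Hochberg adjusted over 22746 probe sets and called under 0.05. The fit was tested on simulated data, with changes placed only on probe sets brighter in the mock than any member. Each probe set had the same spread in all groups there, so that test cannot speak for the members.

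The members, lists and role classes were chosen with earlier results of these data known. All members with 1 gene are named. Values on every array are given for the 12 highest and 4 lowest with NAA and CHX, the 4 most positive and 4 most negative differences from CHX, families of 3 or more and DEX calls; up to 4 called genes are named per list, or up to 2 not called. Promoter motifs were planned and not analysed here. Alternatives were other pseudocounts, thresholds, quantile normalization, a filter, no trend, a replicate block, fewer arrays and each array left out.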

Additional observations from a re-analysis of the deposited data

How the results depend on the processing

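The rule gave 178 members with a pseudocount of 1 (141 shared with the 159), 0 with 64, because log2 of 64 is already the lower limit, and 152 with quantile normalization (150 shared). It gave 124 and 184 with the upper limit raised and lowered by 0.5, and 213 and 109 with the lower limit raised and lowered by 0.5. Of 156 members chosen on replicate 1 arrays, 151 reached 10 with CHX on replicate 2 and 144 were under 6 in mock and DEX; of 158 chosen on replicate 2, 156 and 144 did on replicate 1. With 1 array left out the rule gave 154 to 161 members, 152 to 154 reached 10 with NAA and CHX, and the median difference from CHX was 0.055 to 0.098.

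Counts of DEX calls moved with the settings; the cause was not tested. With DEX alone, members called were 6 (pseudocount 1), 0 (64), 3 (quantile), 4 (the 60% brightest probe sets) and 0 (no trend, only the arrays compared, or only the 8 arrays without CHX), and probe sets called were 17, 1, 8, 8, 0, 0 and 1 in that order of settings. With NAA, members were 6, 0, 4, 4, 0 (only the arrays compared) and 0 (only the 8 without CHX), and probe sets 40, 2, 18, 13, 0 and 1. With CHX, probe sets were 9 (pseudocount 1), 7 (64), 11 (no trend), 0 (only the arrays compared) and 0 (only the 8 with CHX). With NAA and CHX they were 12 (pseudocount 1), 4 (quantile), 0 and 0 (fewer arrays, as before). For the average, 2 members were called with a pseudocount of 1. The main fit did not pair samples by replicate number. Deviations of equally numbered arrays correlated at -0.0464 to 0.0643 over 28 pairs of groups, which does not show how the samples were collected. A replicate block gave 4 probe sets instead of 8 for DEX with NAA and 4 instead of 7 for DEX with NAA and CHX.

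With 1 array left out, members called ranged from 0 to 2 for DEX alone, 0 to 4 with NAA, 0 to 0 with CHX, 0 to 0 with NAA and CHX and 0 to 2 for the average. Probe sets called ranged from 2 to 9, 0 to 19, 3 to 8, 2 to 11 and 10 to 22 in the same order, and for CHX from 13893 to 14585 without NAA and 13971 to 14659 with it.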
